A study of Homo sapiens with 8 samples.

Results

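The genes described here are the chitinase-like proteins of human cells and the receptor side of their signalling. The chitinase-like proteins are CHI3L1, CHI3L2, CHIT1 and CHIA. The receptor side is TMEM219, a co-receptor of CHI3L1, and LGALS3, the gene of galectin-3. They were taken by gene symbol with no filter on measured values, but the choice was made with earlier results of these data known. All 6 were matched in the expression table, each by 1 of the 29141 gene-level features tested (7923547 for CHI3L1, 7903920 for CHI3L2, 7923562 for CHIT1, 7903945 for CHIA, 7994683 for TMEM219 and 7974461 for LGALS3).

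Chitinase-like proteins share the barrel fold of the glycoside hydrolase family 18. CHIT1, chitotriosidase, and CHIA, acidic mammalian chitinase, cleave chitin, whereas CHI3L1 (also called YKL-40) and CHI3L2 (YKL-39) have lost the catalytic residue and act as secreted sugar-binding proteins. CHI3L1 has been described as a ligand of IL13RA2, the second IL-13 receptor, with TMEM219 as the partner that carries the signal into the cell. TMEM219 was also described as a receptor of IGFBP3, and galectin-3 as a lectin that interacts with this receptor complex. In breast cancer CHI3L1 is best known as a secreted protein of tumors and of their macrophages.

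The data were expression arrays of MIV-Luc cells. These are luciferase-expressing MCF10CA1a cells, the metastatic basal-like line at the far end of the MCF10A progression series. The cells carried a pLKO lentiviral construct with either a scrambled hairpin (shSCR) or a hairpin against IL13RA2 (shIL13RA2), 1 hairpin for each construct, in stably transduced pools. Either population was mock-treated or kept in 20 ng/ml of IL-13 over 16 h, so that the 4 groups were mock-treated shSCR, IL-13-treated shSCR, mock-treated shIL13RA2 and IL-13-treated shIL13RA2 cells. The combined change below is that of IL-13-treated shIL13RA2 cells over mock-treated shSCR cells. Each group had 2 arrays, described as biological replicates and named A and B here, 8 arrays in all. The values are log2 expression after robust multi-array averaging (RMA), which summarizes the probes of a gene on a log2 scale, so that a difference of 1 is a fold change of 2.

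Promoter sequences are shown first because the chitinase-like genes with a sequence and the receptor-side genes differed in them. RefSeq windows on GRCh38.p14, from 250 bases before to 50 bases after a gene's start, were found for 5 of the 6 members. CHIA had none. The 120 bases just before the start are printed 5′ to 3′ on the gene's own strand. Capitals mark matches to the motifs searched on both strands, which were TTCNNNGAA, a general STAT binding site, the same site with 4 bases between TTC and GAA, a spacing that STAT6 prefers, TATAAA, the TATA box, and CCGCCC, the core of GC boxes. CHI3L1 lies at chr1:203186705-203186824 on the minus strand, CHI3L2 at chr1:111227539-111227658 on the plus strand, CHIT1 at chr1:203229674-203229793 on the minus strand, TMEM219 at chr16:29961959-29962078 on the plus strand and LGALS3 at chr14:55129132-55129251 on the plus strand.
CHI3L1: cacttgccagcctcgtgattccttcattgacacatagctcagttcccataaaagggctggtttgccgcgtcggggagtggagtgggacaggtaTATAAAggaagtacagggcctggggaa
CHI3L2: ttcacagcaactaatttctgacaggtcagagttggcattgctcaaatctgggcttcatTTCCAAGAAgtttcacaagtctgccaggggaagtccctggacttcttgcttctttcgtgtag
CHIT1: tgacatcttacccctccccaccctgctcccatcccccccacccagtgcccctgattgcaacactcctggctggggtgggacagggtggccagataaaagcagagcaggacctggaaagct
TMEM219: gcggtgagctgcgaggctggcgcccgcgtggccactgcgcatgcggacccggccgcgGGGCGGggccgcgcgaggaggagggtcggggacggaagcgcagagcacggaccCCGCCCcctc
LGALS3: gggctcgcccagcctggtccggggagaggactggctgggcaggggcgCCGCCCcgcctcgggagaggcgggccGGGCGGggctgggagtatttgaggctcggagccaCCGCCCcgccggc

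The chitinase-like genes other than CHIA, which had no window, and the receptor-side genes had promoters of different composition. The windows of TMEM219 and LGALS3 each held 39 CpG dinucleotides, a number reached by 8.71% of the 35116 windows, whose median was 14. The window of CHI3L1 held 7, that of the first of 2 listed starts of CHI3L2 held 4 (the second held 3) and that of CHIT1 held 3. At least as many were held by 63.2% of all windows for CHI3L1, 75.5% for the first start of CHI3L2 and 81.8% for CHIT1. CCGCCC was found 3 times in the window of TMEM219 and 3 times in that of LGALS3 and in no window of the chitinase-like genes, against 45% of all windows. TATAAA was found at -27 of CHI3L1 and in 11.5% of all windows.

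A match to TTCNNNGAA was found at -62 of CHI3L2, where it reads TTCCAAGAA (-116 from the second listed start), and in 7.66% of all windows. The site with 4 bases between, found in 6.44% of windows, was in none of the member windows. These matches describe the letters of the windows and not binding. On chromosome 1, CHI3L1 and CHIT1 are neighbours with 1 gene between them, and CHI3L2 and CHIA have 2 pseudogenes between them, CHIAP1 and CHIAP2.

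Before the members, the groups were checked on the receptor and on the IL-13 response. IL13RA2 read 8.07 and 8.09 in mock-treated shSCR cells, 9.36 and 9.33 in IL-13-treated shSCR cells, 6.52 and 6.34 in mock-treated shIL13RA2 cells and 8.23 and 8.15 in IL-13-treated shIL13RA2 cells. The hairpin lowered it in both treatments, and IL-13 raised it in both constructs, so that IL-13-treated shIL13RA2 cells stood near the level of mock-treated shSCR cells. The knockdown without IL-13 was -1.65 on the log2 scale (SE 0.11, adjusted p = 0.0105 in limma), a fold of 0.319. Without any 1 of the 4 arrays compared it was -1.74 to -1.55, with an adjusted p of 0.0696 to 0.157 for IL13RA2. SERPINB3, a serpin that IL-13 induces in epithelium, rose by 3.88 with IL-13 in shSCR cells (adjusted p = 3.6e-05 in limma). Arrays correlated at 0.992 to 0.993 within groups and 0.988 to 0.993 between groups, and no pair held identical values. The 11 features of the 8 basal epithelium markers averaged 8.97 to 9.28 per array and all lay above the median of the negative controls on every array. The mean was highest in mock-treated shSCR cells (9.23 and 9.28) and lowest in IL-13-treated shIL13RA2 cells (8.97 and 9.07). The 10 macrophage markers averaged 4.03 to 4.15 over 13 features, 4 of them above that median on every array. Among these features the 3 of AIF1 held identical values, as did the 2 of MRC1. These dim genes therefore count more than once in the macrophage mean. The 6 fibroblast markers averaged 4.24 to 4.38, 4 of 6 above that median.

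The file gives no detection calls, so each member was placed among the 2904 negative-control features of the same array. The receptor-side genes lay high in that distribution and the chitinase-like genes in its middle. Of the negative controls, 11.4% to 14.3% were brighter than LGALS3, depending on the array, and 17.2% to 21.8% were brighter than TMEM219. For CHIT1 the share was 37.7% to 46.9% and for CHI3L2 38.2% to 51.1%. For CHIA it was 55.6% to 60.9% and for CHI3L1 53.5% to 64.9%, which puts these genes below the control median on every array. Among the chitinase-like genes 1 of 4, CHIT1, was above the median on all 8 arrays, as were both receptor-side genes and 59.6% of all tested features. None of the 6 exceeded the 95th percentile of the controls on any array, which 3.51% of tested features did on all 8. Since probes differ between genes, these are places among controls and not levels to be set against each other.

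**Figure D1:**
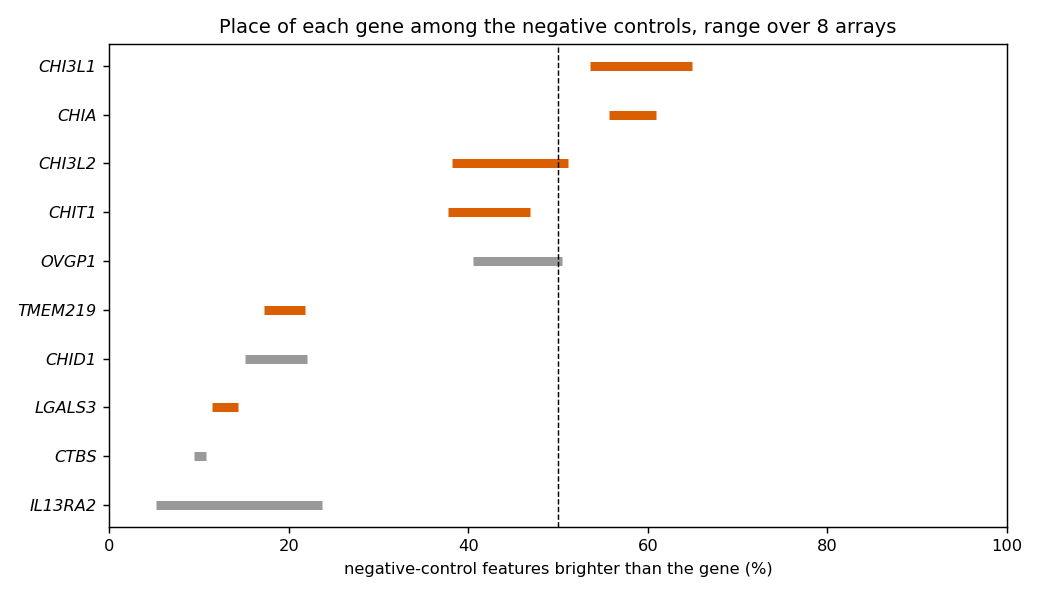
Horizontal bars show, for the 6 members (orange) and 4 related genes (grey), the lowest to the highest percentage of the 2904 negative-control features that were brighter than the gene, over 8 arrays. The dashed line is the control median. CHI3L1 (53.5% to 64.9%) and CHIA lie to its right on every array, and TMEM219 (17.2% to 21.8%) and LGALS3 (11.4% to 14.3%) lie far to its left.

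TMEM219, the co-receptor, was highest in mock-treated shSCR cells. It read 6.87 and 6.79 there, 6.63 and 6.72 with IL-13, 6.58 and 6.69 in mock-treated shIL13RA2 cells and 6.55 and 6.66 in IL-13-treated shIL13RA2 cells. Both arrays of mock-treated shSCR cells were above the other 6, and the other groups overlapped one another. How many of all tested features separate groups in this way was not determined, here or for the genes below. The group means were 6.83 ± 0.053, 6.67 ± 0.064, 6.64 ± 0.079 and 6.60 ± 0.078 in that order (SD, n = 2). The gene was steady between arrays of a group, with a pooled within-group SD of 0.069 that was larger than that of 11.4% of all tested features.

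The differences of TMEM219 from mock-treated shSCR cells did not pass the test. With IL-13 alone the change was -0.16 on the log2 scale (SE 0.11, 95% confidence interval -0.41 to 0.094, adjusted p = 0.839 in limma). With the knockdown alone it was -0.19 (interval -0.44 to 0.058, adjusted p = 0.618). With both together it was -0.23 (interval -0.48 to 0.025, adjusted p = 0.562), a size exceeded by 24.6% of all tested features in that comparison. These 3 changes share the mock-treated shSCR arrays. Between the remaining groups the changes were -0.033 for IL-13 in shIL13RA2 cells (adjusted p = 0.974) and -0.069 for the knockdown among IL-13-treated cells (adjusted p = 0.937). The averages over both constructs and both treatments were -0.095 for IL-13 (SE 0.077, adjusted p = 0.773) and -0.13 for the knockdown (adjusted p = 0.577). The median of the negative controls ran the other way over the groups, at 4.12 to 4.15 in mock-treated shSCR cells, 4.21 to 4.30 with IL-13, 4.31 to 4.36 in mock-treated shIL13RA2 cells and 4.28 to 4.38 with both, and its part in the pattern of TMEM219 was not tested.

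LGALS3 encodes galectin-3, a lectin that binds beta-galactoside sugars inside and outside the cell. It read 7.74 and 7.57 in mock-treated shSCR cells, 7.42 and 7.64 with IL-13, 7.45 and 7.46 in mock-treated shIL13RA2 cells and 7.52 and 7.56 in IL-13-treated shIL13RA2 cells. The mock-treated shSCR arrays were above both groups of shIL13RA2 arrays, at the closest with 7.57 against 7.56, and overlapped with the IL-13-treated shSCR arrays. The knockdown without IL-13 gave -0.20 (SE 0.12, interval -0.47 to 0.076, adjusted p = 0.636 in limma) and the combined change -0.11 (adjusted p = 0.832). IL-13 gave -0.12 in shSCR cells (adjusted p = 0.883) and 0.089 in shIL13RA2 cells (adjusted p = 0.919), where the arrays did not overlap. Among IL-13-treated cells the knockdown gave 0.013 (adjusted p = 0.994). Averaged over the other factor, IL-13 gave -0.017 (adjusted p = 0.975) and the knockdown -0.093 (adjusted p = 0.733). No change of LGALS3 passed the test in limma. By the methods' test on the 4 arrays compared, the change with IL-13 in shIL13RA2 cells had an unadjusted p of 0.0484 from a one-way analysis of variance.

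**Figure D2:**
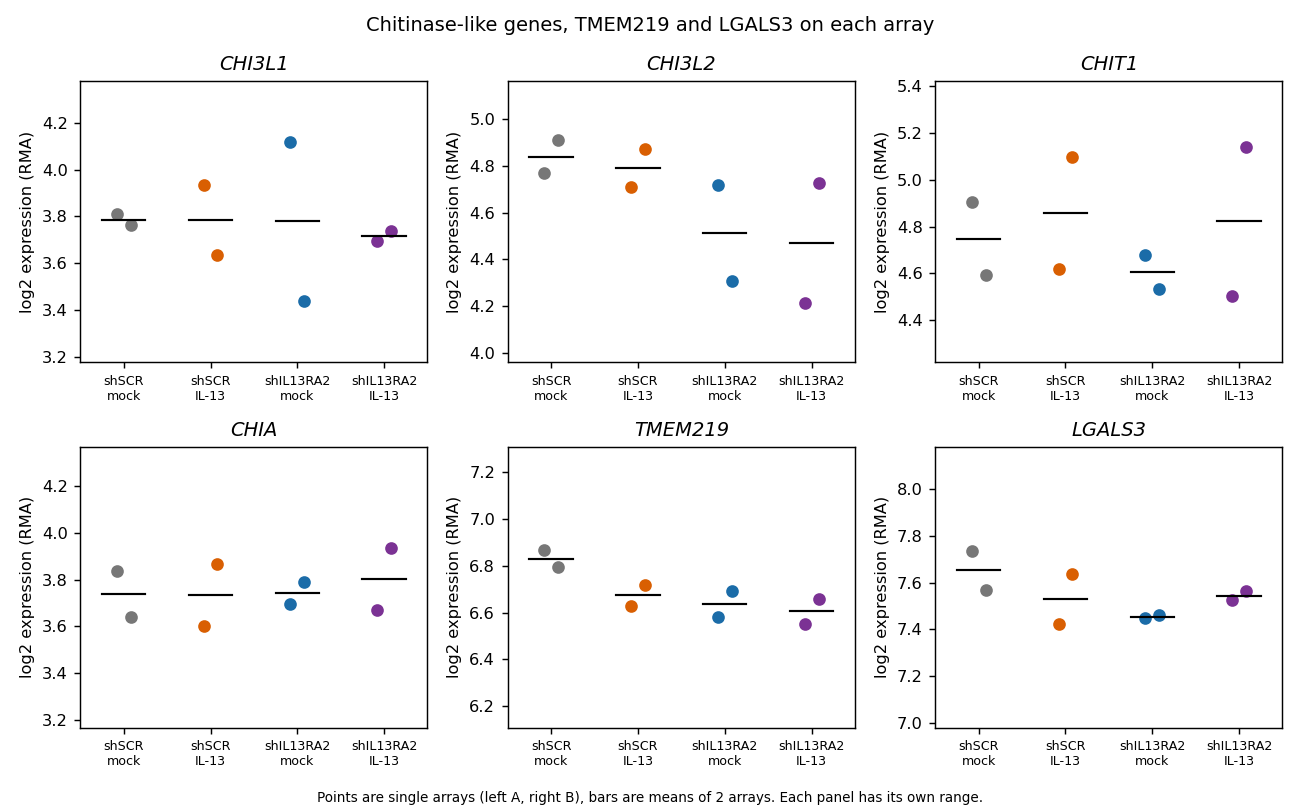
Each panel shows 1 gene, with log2 expression (RMA) on the vertical axis, the 4 groups on the horizontal axis, a point for each array and a bar at the mean of 2 arrays. Panels have their own vertical ranges. In the TMEM219 panel both mock-treated shSCR arrays (6.87 and 6.79) lie above the other 6, and in the CHI3L1 panel the highest and the lowest of all arrays (4.12 and 3.44) are the pair of mock-treated shIL13RA2 arrays.

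CHI3L1, the secreted ligand, had nearly the same mean in the 4 groups. It read 3.81 and 3.76 in mock-treated shSCR cells, 3.94 and 3.63 with IL-13, 4.12 and 3.44 in mock-treated shIL13RA2 cells and 3.69 and 3.74 in IL-13-treated shIL13RA2 cells. The means were 3.79 ± 0.033, 3.78 ± 0.213, 3.78 ± 0.478 and 3.72 ± 0.031 (SD, n = 2). The arrays that were farthest apart, by 0.676, belonged to 1 group, mock-treated shIL13RA2 cells. Averaged over both constructs, IL-13 gave -0.032 (SE 0.15, adjusted p = 0.975 in limma), and averaged over both treatments the knockdown gave -0.038 (adjusted p = 0.957). Since CHI3L1 lay below the control median on every array, these values do not bound a change of its RNA.

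CHI3L2, which was first described as a secreted product of cartilage cells, had the widest differences between group means among the 6 genes. It read 4.77 and 4.91 in mock-treated shSCR cells, 4.71 and 4.87 with IL-13, 4.72 and 4.31 in mock-treated shIL13RA2 cells and 4.21 and 4.73 in IL-13-treated shIL13RA2 cells. In either group of shIL13RA2 cells 1 array stood at the level of the shSCR arrays and 1 array well below it. CHI3L2 lay above the control median on 6 of 8 arrays. In either group of shIL13RA2 cells the low array lay below that median, so the changes here do not bound a change of its RNA. The mean knockdown effect over both treatments was -0.32 (SE 0.14, 95% confidence interval -0.65 to 0.0018, adjusted p = 0.443 in limma), which was the smallest adjusted p of the 48 changes fitted to the 6 genes. It was -0.33 without IL-13 (adjusted p = 0.646), -0.32 among IL-13-treated cells (adjusted p = 0.820) and -0.37 for the combined change (interval -0.83 to 0.092, adjusted p = 0.614). IL-13 gave -0.046 in shSCR cells (adjusted p = 0.983), -0.043 in shIL13RA2 cells (adjusted p = 0.983) and -0.045 on average (adjusted p = 0.958). The interval for the combined change reached a fold of 1.77 at its far end, which bounds the array value and not the RNA.

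The chitin-cleaving enzymes gave no change that passed the test. CHIT1, which macrophages make, read 4.91 and 4.59 in mock-treated shSCR cells, 4.62 and 5.10 with IL-13, 4.68 and 4.53 in mock-treated shIL13RA2 cells and 4.50 and 5.14 in IL-13-treated shIL13RA2 cells. Its arrays overlapped between all groups, and its within-group SD was larger than that of 93.2% of all tested features. The mean IL-13 effect on CHIT1 was 0.16 (SE 0.17, adjusted p = 0.840 in limma) and the mean knockdown effect -0.090 (adjusted p = 0.888). CHIA, which mouse airway epithelium and macrophages make in response to IL-13, read 3.84 and 3.64 in mock-treated shSCR cells, 3.60 and 3.87 with IL-13, 3.69 and 3.79 in mock-treated shIL13RA2 cells and 3.67 and 3.94 in IL-13-treated shIL13RA2 cells. Its groups overlapped as well. The mean IL-13 effect on CHIA was 0.029 (adjusted p = 0.963) and the mean knockdown effect 0.036 (SE 0.10, adjusted p = 0.933). CHIA lay below the control median on every array too, so the same limit holds.

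Counted together, 0 of the 6 genes were called in any comparison, where a call needed a limma p adjusted over all tested features under 0.05 and a fold change above 2. The same count at an unadjusted p under 0.05 was also 0 of 6 in every comparison. With IL-13 in shSCR cells 5 of 6 changes were below 0, none past a test, with CHI3L1 (-0.00089) and CHIA (-0.0046) close to 0. Of all tested features 0.0583% were called, 0.0618% had an adjusted p under 0.05 at any fold and 6.79% an unadjusted p under 0.05. Such shares are not shares of directions. The median change of all features was 0.0019 here, -0.014 for the knockdown without IL-13 and 0.0062 for the combined change. For the knockdown without IL-13, 5 of 6 were below 0, and the shares of all features were 0.0652%, 0.0686% and 9.51%. For the combined change, 4 of 6 were below 0, with shares of 0.154%, 0.285% and 9.56%. With counts this small, 0 of 6 called is what the background shares alone would leave.

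The comparisons that did not use the mock-treated shSCR arrays alone as the baseline gave the same counts. IL-13 in shIL13RA2 cells gave 3 of 6 changes above and 3 below 0, with 0.0618% of features called, 0.0618% passing the adjusted p and 6.93% the unadjusted p. The knockdown among IL-13-treated cells left 4 of 6 below 0, beside 0.0515%, 0.0549% and 7.07%. For these directions no test was passed by any member. The mean IL-13 effect was below 0 for 4 of 6, beside 0.0927%, 0.233% and 8.73%, and the mean knockdown effect for 5 of 6, beside 0.0755%, 0.446% and 11.3%. The interaction, which asks whether IL-13 acted differently after the knockdown, was called for 0 of 6 genes and for 0% of all features by adjusted p, beside 4.47% by unadjusted p. Its size was between -0.061 and 0.21 for the members, with limma adjusted p values of 0.989 and above. The medians of the 4 chitinase-like genes were -0.0012 for IL-13 and -0.064 for the knockdown, those of the 2 receptor-side genes -0.056 and -0.11, and those of all features 0.0084 and -0.0060.

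**Figure D3:**
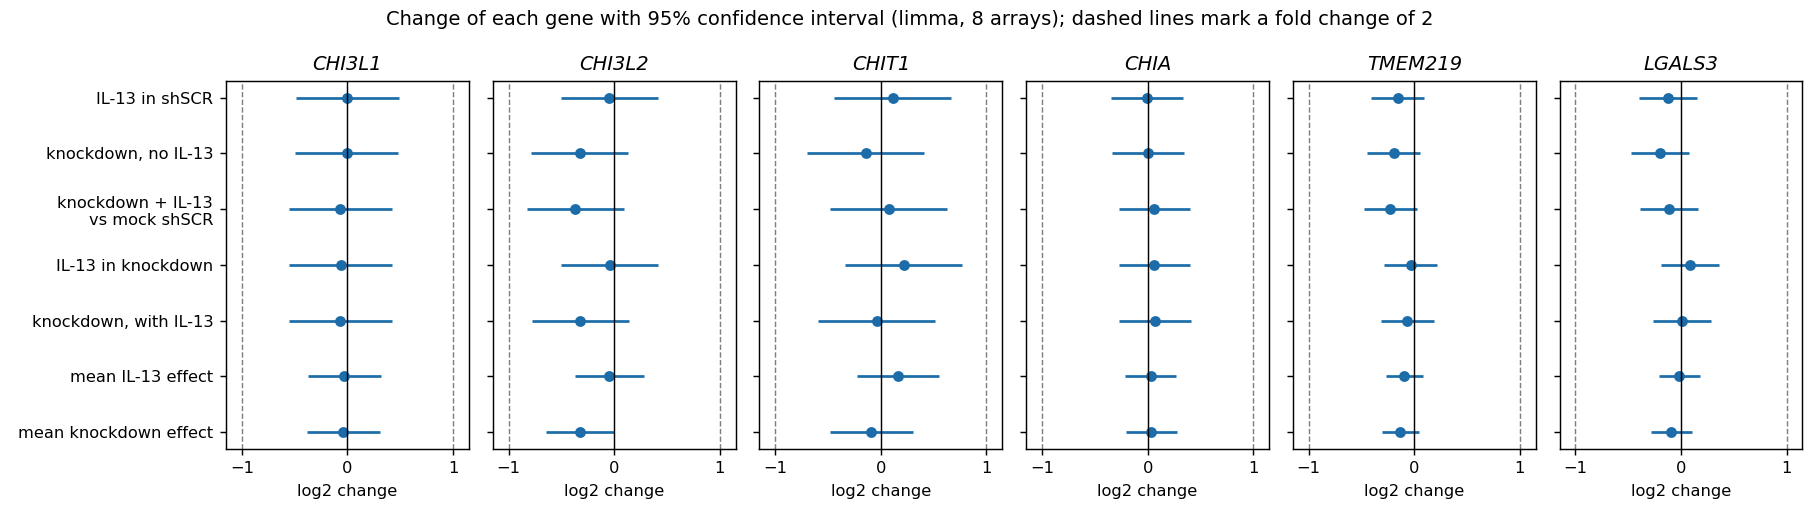
For each gene, points give the log2 change in 7 comparisons and horizontal lines its 95% confidence interval from limma on 8 arrays. The solid line is no change and the dashed lines mark a fold change of 2. All intervals lie inside a fold change of 2 and cross 0, among them the mean knockdown effect on CHI3L2 at -0.32 (-0.65 to 0.0018). CHI3L1 and CHIA lay below the control median on every array, and CHI3L2 lay above it on 6 of 8. For these genes the intervals do not bound a change of the RNA.

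The members varied together only in part over the 8 arrays, and correlations are given as descriptions over arrays that share their groups and normalization. Pearson's r was 0.757 between TMEM219 and LGALS3 and 0.836 between CHIT1 and CHIA, while CHI3L1 and TMEM219 gave -0.24. The genes most like TMEM219 over the arrays were ZMAT2 (r = 0.957), AS3MT (0.956) and TMEM205 (0.948), 3 of 55 features above 0.9. Those most like LGALS3 were CACNB1 (0.972), WDR53 (0.969) and RRAD (0.963), of 36 features above 0.9. For CHI3L1 they were FAM189B (0.968), ST8SIA1 (0.949) and CRB3 (0.947), of 21 features above 0.9. These counts are out of all 29141 tested features, and how many unrelated features would reach 0.9 over 8 arrays was not tested. CHI3L1 lay below the control median on every array.

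Other human genes of the same hydrolase family were measured alongside. They were CTBS, a lysosomal chitobiase, CHID1, a chitinase-domain protein that binds lipopolysaccharide, and OVGP1, the oviduct glycoprotein. None of the 3 passed an adjusted p under 0.05 in any comparison. CTBS was brighter than all but 9.47% to 10.7% of the negative controls and OVGP1 lay near their median (40.5% to 50.5% brighter). CHID1 read 7.09 and 6.90 in mock-treated shSCR cells, 7.18 and 6.72 with IL-13, 6.57 and 6.68 in mock-treated shIL13RA2 cells and 6.72 and 6.81 with both, a mean knockdown effect of -0.28 (SE 0.11, adjusted p = 0.419 in limma). The shSCR array at 6.72 lay within the range of the shIL13RA2 arrays.

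Receptors and binding partners of CHI3L1 and TMEM219 formed a list of 9 genes with 11 features. IL13RA2 was called with IL-13 and with the knockdown, and at an adjusted p under 0.05 without the fold threshold 2 further genes passed, CD44 and IGFBP3. That adjusted p was passed by 0.233% of all tested features for the mean IL-13 effect and by 0.446% for the mean knockdown effect. The list was chosen with earlier results of these data known. CD44, a hyaluronan receptor, read 11.34 and 11.30 in mock-treated shSCR cells, 11.85 and 11.93 with IL-13, 11.26 and 11.19 in mock-treated shIL13RA2 cells and 11.95 and 11.76 with both. All 4 IL-13-treated arrays were above all 4 mock-treated ones, with a mean IL-13 effect of 0.60 (SE 0.078, adjusted p = 0.0358 in limma). Within constructs the change of CD44 was 0.57 in shSCR cells (adjusted p = 0.337) and 0.63 in shIL13RA2 cells (adjusted p = 0.208).

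IGFBP3, the insulin-like growth factor binding protein that was described as a TMEM219 ligand, was higher in both groups of shIL13RA2 cells. It read 5.99 and 6.08 in mock-treated shSCR cells, 5.83 and 5.76 with IL-13, 6.67 and 6.73 in mock-treated shIL13RA2 cells and 6.28 and 6.26 with both. The mean knockdown effect was 0.57 (SE 0.072, adjusted p = 0.0229 in limma) and the mean IL-13 effect -0.33 (adjusted p = 0.211). These ligand values stood beside a mean knockdown effect of -0.13 on TMEM219 itself that did not pass. SDC1, syndecan-1, gave -0.28 for the knockdown (adjusted p = 0.287) and ITGB5, an integrin subunit, -0.27 for the combined change (adjusted p = 0.480). The remaining partners, PTGDR2, AGER, ITGAV and ITGB3, had no unadjusted p under 0.05. The median over the 11 features was 0.069 for IL-13 and -0.087 for the knockdown.

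Galectins and proteins that galectin-3 binds made up a list of 20 genes, of which 19 were measured by 21 features, and none passed an adjusted p under 0.05 in any comparison. LGALS1, galectin-1, read 10.43 and 10.11 in mock-treated shSCR cells, 10.14 and 9.88 with IL-13, 9.69 and 9.80 in mock-treated shIL13RA2 cells and 9.72 and 9.57 with both. All 4 shIL13RA2 arrays were below all 4 shSCR arrays. The mean knockdown effect was -0.45 (SE 0.11, adjusted p = 0.174 in limma), and where the variance prior followed the intensity and was fitted robustly the adjusted p was 0.0196. LGALS4 gave a mean IL-13 effect of 0.35 (adjusted p = 0.537) and LGALS3BP, a secreted glycoprotein bound by galectin-3, 0.19 (adjusted p = 0.551). The medians of the list were -0.014 for IL-13 and -0.066 for the knockdown.

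Of 6 secreted factors described downstream of CHI3L1 signalling, 1 passed an adjusted p under 0.05 in limma and none was called with the fold threshold. That adjusted p was passed by 0.233% of all tested features for the mean IL-13 effect and by 0.285% for the combined change. The list was chosen with earlier results of these data known. HBEGF, a ligand of the EGF receptor, read 7.14 and 7.09 in mock-treated shSCR cells, 7.78 and 7.86 with IL-13, 7.39 and 7.28 in mock-treated shIL13RA2 cells and 7.85 and 7.96 with both. The IL-13-treated arrays were above the mock-treated arrays in either construct, with a mean IL-13 effect of 0.64 (SE 0.076, adjusted p = 0.0242 in limma) and a change of 0.79 for the combined change (SE 0.11, adjusted p = 0.0357). This is a fold of 1.55 on average, under the threshold of 2. TGFB1 gave -0.42 for the knockdown without IL-13 (adjusted p = 0.410). It lay near the control median, above it on 4 of 8 arrays, with 40.6% to 53.6% of the negative controls brighter. CXCL8 gave 0.41 for the combined change (adjusted p = 0.377). VEGFA, CCL2 and MMP9 had no unadjusted p under 0.05. The results of CD44, IGFBP3 and HBEGF rest on all arrays, since leaving out any 1 of the 8 raised the adjusted p of each mean effect above 0.05 (CD44 0.107 to 0.185, IGFBP3 0.0879 to 0.118, HBEGF 0.0932 to 0.138) while the effects stayed at 0.55 or above.

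**Figure D4:**
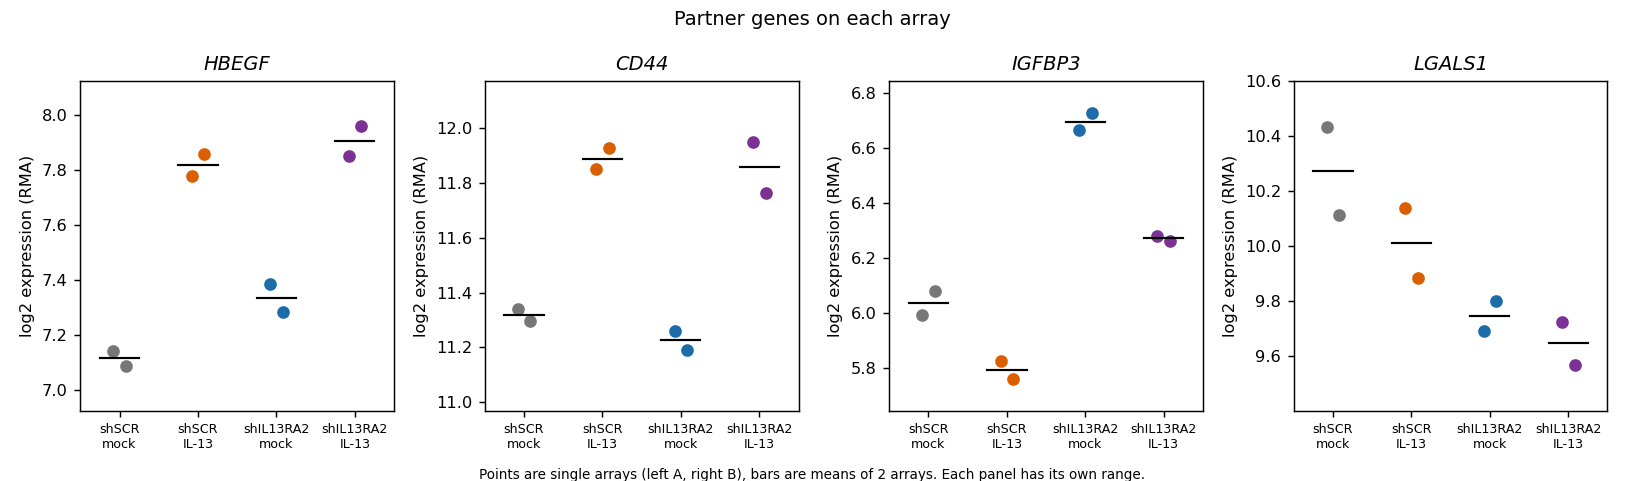
Each panel shows 1 gene from the lists of binding partners (CD44, IGFBP3), secreted factors (HBEGF) or galectins (LGALS1). Log2 expression (RMA) is on the vertical axis and the 4 groups on the horizontal axis, with a point for each array and a bar at the mean of 2 arrays. HBEGF and CD44 are higher on all 4 IL-13-treated arrays than on all 4 mock-treated ones, IGFBP3 is higher on all 4 shIL13RA2 arrays than on all 4 shSCR arrays, and LGALS1, whose mean knockdown effect of -0.45 did not pass, is lower on them.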

How the data were processed

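The authors deposited 1 table of log2 expression values, made from 8 arrays by RMA (Affymetrix Expression Console version 1, per the submitters' processing notes). RMA corrects the background, brings the arrays to 1 distribution and combines the probes of a gene. The label and methods name an exon array, whereas the deposited values are gene-level features, and the array type was not settled here. Genome build and annotation version are not given in the sources used here. Of 33297 features, 4156 controls were left out and 29141 were tested with no filter, and 0 columns were left unused. Columns were assigned to groups by construct and treatment, since their running numbers are not the labels' replicate numbers. The number of arrays limits the precision.

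Group means were fitted in limma 3.58.1 (R 4.3.3) over all 8 arrays (4 residual and 3.86 prior degrees of freedom), with Benjamini-Hochberg adjustment over all tested features, and the procedure was tested on simulated data. The methods' own test, a one-way analysis of variance, was an alternative. The members and the 10 lists were chosen with earlier results of these data known. Named with values are all members, IL13RA2, SERPINB3, list genes with an unadjusted p under 0.05 (at most 3 per list and comparison) and the 3 genes most like CHI3L1, TMEM219 and LGALS3. LGALS7B was unmatched. Promoter sequences are those of RefSeq (GRCh38.p14), where 5 of 6 members had an entry.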

Additional observations from a re-analysis of the deposited data

Results flagged for a closer look

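LGALS9, the gene of galectin-9, ran in opposite directions between the constructs. It read 2.83 and 2.90 in mock-treated shSCR cells, 3.41 and 3.30 with IL-13, 3.75 and 3.36 in mock-treated shIL13RA2 cells and 2.91 and 2.92 with both. With either construct all IL-13-treated arrays lay on 1 side of the mock-treated ones, and the sides differed. The interaction was -1.13 on the log2 scale (SE 0.20), and it was the same value for the IL-13 and for the knockdown comparison, since both are 1 difference of differences. Its adjusted p in limma was 0.989, so it did not pass over all features. Between 59.6% and 74.9% of the negative controls were brighter than LGALS9, and its near-identical copies LGALS9B and LGALS9C may share probes with it. LGALS16 gave an interaction of -0.81 (SE 0.31, adjusted p = 0.989), with 2.72 and 2.36, 2.78 and 3.08, 2.59 and 3.17, and 2.38 and 2.53 in the same order of groups. For LGALS16, 69.6% to 83.9% of the negative controls were brighter, so it too lay below the control median on every array. No other value of the 20 genes examined stood out in this way.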

How the results depend on the processing

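Under the alternatives run, 0 of the 6 members were called in any comparison. These were a robust variance prior with an intensity trend, leaving out the dimmest 30% of features (CHI3L1 and CHIA then drop out), arrays shifted to 1 median, further quantile normalization, limma on the arrays compared, unadjusted p, other fold thresholds, the methods' test and leaving out each array. The lowest adjusted p was 0.330, and the methods' unadjusted p was under 0.05 for LGALS3 alone (0.0484, fold under 2). Of 620 values for the members' changes, 62 changed sign, 59 of them with an array left out, and the cause was not tested. Leaving out each array in turn, the mean IL-13 effect ran from -0.20 to 0.14 for CHI3L1, -0.17 to 0.083 for CHI3L2, 0.0039 to 0.32 for CHIT1, -0.038 to 0.096 for CHIA and -0.070 to 0.036 for LGALS3. The mean knockdown effect ran from -0.21 to 0.13 for CHI3L1, -0.25 to 0.069 for CHIT1, -0.031 to 0.10 for CHIA and, without a change of sign, from -0.45 to -0.20 for CHI3L2 and -0.16 to -0.10 for TMEM219. For CHI3L2 it ran from -0.53 to -0.12 without IL-13, -0.58 to -0.066 among IL-13-treated cells and -0.62 to -0.11 for the combined change. IL-13 in shSCR cells gave -0.13 to 0.035 for CHI3L2, IL-13 in shIL13RA2 cells -0.30 to 0.21 for CHI3L2 and -0.089 to 0.023 for TMEM219, and the knockdown among IL-13-treated cells -0.093 to 0.12 for LGALS3. On the 4 arrays compared alone, the change of HBEGF with both against mock-treated shSCR cells had an adjusted p of 0.215, and those of IL13RA2 had 0.122 with IL-13 and 0.174 with the knockdown. No paired analysis was possible because the columns carry running numbers and not the labels' replicate numbers. Most chitinase-like values lie among the negative controls, which limits what the arrays can show of these genes.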
